A study of Mus musculus with 17 samples.

Results

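The titin locus of the neonatal mouse heart was read here through its noncoding rows only. All rows whose position overlaps a window of 282 kb on chromosome 2 (build mm9) were taken, which holds the body of the titin gene Ttn and anything antisense to it. Of the 23940 rows in each table, 2 met this rule. One is TCONS_00035051, an assembled feature as long as the gene. The other is NONMMUT038069, a short NONCODE feature inside it. The values came from 17 strand-specific, paired-end RNA sequencing libraries of total RNA from ventricles of male C57Bl/6 mice. The groups were the right ventricle (RV) and the left ventricle (LV) at postnatal day 0 (P0), before the ductus arteriosus closes, at day 3 (P3), a transition stage, and at day 7 (P7), when most heart muscle cells have differentiated. Each held 3 libraries, except RV at P7 with 2. The labels call the replicates biological but do not say whether RV and LV of one number share an animal. Markers of heart cell types are not listed under a name in the tables, so the labelled tissue was not checked.

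Titin is the giant protein of the sarcomere. It reaches from the Z-disc to the M-band and acts as a spring that sets the passive stiffness of heart muscle. Its gene is read on the minus strand and is spliced into many isoforms. After birth the heart is known to shift from longer, more compliant titin (N2BA) to shorter, stiffer titin (N2B), with the splicing factor RBM20 as a main regulator. The deposited tables hold noncoding rows, so the Ttn messenger RNA and its isoforms were not analysed here. They list no strand, so a row inside Ttn cannot be assigned to the sense or the antisense strand.

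TCONS_00035051 covers chr2:76542041-76820604 (mm9), a span of 278564 bases. In GENCODE release M21, which uses the newer build GRCm38, Ttn spans 278568 bases, a difference of 4 bases. The ends of the annotated gene lie 161939 and 161943 bases higher than those of the row, and the positions in the files are taken as those of the older build mm9. The row therefore has the extent of the whole gene, and the window reaches 2041 bases beyond its lower end and 1396 beyond its upper end. NONMMUT038069 covers chr2:76666937-76667847 (mm9), a span of 911 bases. It lies inside the long row, 152757 bases from its upper end and 124896 bases from its lower end. Since Ttn runs downward from the upper end, the short row sits 55.0% of the way along the gene. Whether it falls in an exon or an intron of Ttn was not analysed here, because no annotation of mm9 was used. GENCODE M21 also lists an antisense gene inside Ttn, Gm13938, with a span of 63933 bases and a spliced length of 0.493 kb. Neither row of the locus has that span. In GRCm38 Gm13938 ends at 76786708 and the lower end of Ttn is at 76703980. Measured from the lower end of the gene, Gm13938 thus ends before the short row begins, and the short row does not overlap it.

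**Figure D1:**
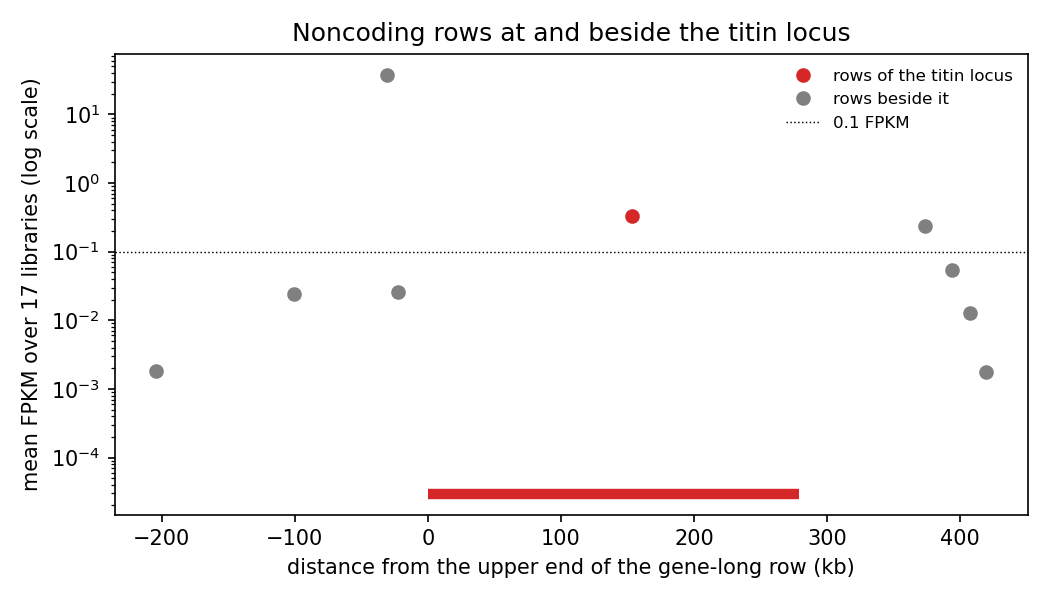
Mean level of each noncoding row in FPKM over 17 libraries (log scale) against distance from the upper end of the gene-long row in kb; red marks the 2 rows of the titin locus, with the long row drawn as a bar, and grey the 8 rows in the stretches of equal length beside it. The short row stands at 0.329 FPKM inside the gene, the long row is the lowest point drawn, and the 1 row above 1 FPKM lies outside the locus.

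The gene-long row was almost empty. TCONS_00035051 was listed at 0 in 16 of the 17 libraries, and in RV P3 replicate 1 it had 0.000506 FPKM, fragments per kilobase of feature scaled to library depth. Its mean over all libraries was the lowest of all 23940 rows. FPKM divides by feature length, so the rank of so long a row also reflects its length. If that 1 value is worth a single fragment at the depth of this library, the feature's counted length is 101.5 kb, and if it is worth 0.5 of a fragment, 50.8 kb. Annotated Ttn transcripts in GENCODE M21 reach 106.8, 101.7 and 100.4 kb. The row was under the threshold for testing, at least 0.1 FPKM in at least 2 libraries, and no comparison between groups was made from it.

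Most rows of this length were seen in more libraries. Of the 126 rows with a span at least as long, 27 were above 0 in a single library, this row among them. That is a larger share than the 11.6% of all rows. The median over the 126 was 7 libraries above 0. A total of 43 of the 126 passed the threshold. Among the 2035 assembled (TCONS) rows, 58 were above 0 in a single library, 2.85% of them, against 11.6% of all rows. Every row in the tables was above 0 in at least 1 library.

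The short row was low but recurrent. NONMMUT038069 was above 0 in 16 of the 17 libraries and at or above 0.1 FPKM in the same number. Its mean over all libraries was 0.329 ± 0.200 FPKM (SD, n = 17), above 65.0% of the 11079 rows that were tested, whose median was 0.183 FPKM. The locus thus contributed 1 tested row of 2.

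At birth the right ventricle held the widest spread of values. NONMMUT038069 had 0.138, 0.883 and 0.622 FPKM in the 3 RV P0 libraries, against 0.263, 0.386 and 0.373 FPKM in the 3 LV P0 libraries. RV P0 holds both the highest value of the study and one below all LV P0 libraries, so the groups overlap. The means were 0.548 ± 0.378 FPKM in RV P0 and 0.341 ± 0.0677 FPKM in LV P0 (SD, n = 3 each).

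At P3 the ventricles stood close together. The row had 0.453, 0.356 and 0.206 FPKM in the 3 RV P3 libraries, against 0.314, 0.285 and 0.302 FPKM in the 3 LV P3 libraries. All LV values lie within the range of RV. The means were 0.339 ± 0.124 FPKM in RV P3 and 0.300 ± 0.0146 FPKM in LV P3 (SD, n = 3 each).

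At P7 the left ventricle held the lowest values. The row had 0.244 and 0.368 FPKM in the 2 RV P7 libraries, against 0.110, 0 and 0.297 FPKM in the 3 LV P7 libraries. The lower pair of LV libraries lies under both RV libraries, while the third lies between them. The means were 0.306 ± 0.0875 FPKM in RV P7 (SD, n = 2) and 0.136 ± 0.150 FPKM in LV P7 (SD, n = 3). LV P7 replicate 2 is listed at 0, where 3 fragments would read as 0.177 FPKM.

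Ordered by mean level, the groups ran RV P0, LV P0, RV P3, RV P7, LV P3 and LV P7. The ranges of neighbours in this order overlapped, as did those of all 15 pairs of groups. With both ventricles together, the median was 0.380 FPKM at P0 (n = 6), 0.308 FPKM at P3 (n = 6) and 0.244 FPKM at P7 (n = 5). With the ages together, it was 0.362 FPKM in RV (n = 8) and 0.297 FPKM in LV (n = 9).

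**Figure D2:**
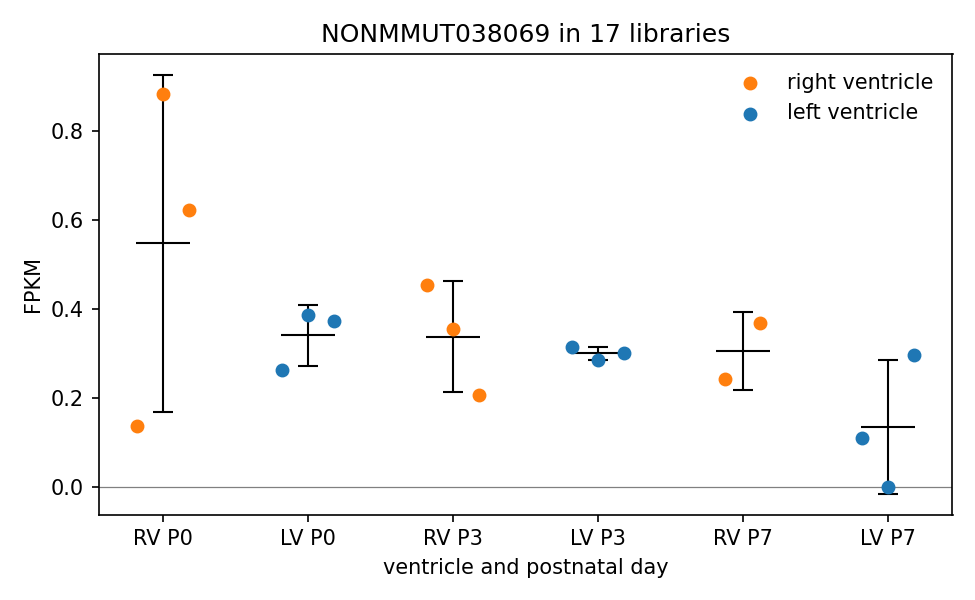
FPKM of NONMMUT038069 in each of the 17 libraries, by ventricle and postnatal day; points are libraries, the long horizontal line is the group mean and the whiskers its SD (n = 3, RV P7 n = 2). RV P0 spans 0.138 to 0.883 FPKM, LV P3 stays within 0.285 to 0.314, and LV P7 includes a library at 0.

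These levels rest on few fragments. Within each library, 66.1% to 69.4% of low values across the table, multiplied by the span of their row, fell on whole multiples of a step. The step was taken as 0.5 of a fragment, which gives 13.8 to 20.5 M fragments per library. Depth was searched within a set range only, and a step of a whole fragment would give larger depths and counts. With the step of 0.5, NONMMUT038069 had 2.5, 15 and 11.5 fragments in the RV P0 libraries, against 5.5, 6 and 7 in those of LV P0. At P3 it had 9, 5 and 3.5 fragments in RV and 6, 5.5 and 5.5 in LV. At P7 it had 4.5 and 7 fragments in RV, and 2, 0 and 5.5 in LV.

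Summed over the study, the row had 101 fragments in 301.8 M, or 0.335 per M. Every value lay within 0.00105 of a whole number of steps. The common step implies a counted length of 1019 bases, longer than the span of 911 bases, and the files do not say why.

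Set against counting error, the groups varied unequally. The square root of the mean number of fragments gives the SD expected from counting alone. In RV P0 the observed SD of 0.378 FPKM was 2.15 times that expectation of 0.176 FPKM, and in LV P7 the observed 0.150 FPKM was 1.75 times the expected 0.0858 FPKM. In LV P0, LV P3, RV P3 and RV P7 the observed SD was below the expectation, at 0.493, 0.116, 0.888 and 0.685 times it. These ratios come from 3 or 2 libraries each, describe counting error only and were not tested. They also rest on the step taken as 0.5 of a fragment. Sequenced fragments are not independent molecules, so true counting error can be larger.

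The age comparisons in the left ventricle asked whether the row changed as this chamber matured. No call was made in any of them by limma over all 11079 tested rows, on log2(FPKM + 0.1), at a Benjamini-Hochberg adjusted p under 0.05. The added 0.1 shrinks differences between low values. The P3 minus P0 difference of NONMMUT038069 was -0.13 ± 0.49 (SE; 95% interval -1.16 to 0.90; limma adjusted p = 0.958). The P7 minus P3 difference was -0.98 ± 0.49 (95% interval -2.01 to 0.05; limma adjusted p = 0.377), and it was -0.47 without LV P7 replicate 2 and -1.46 without LV P7 replicate 3. For P7 minus P0 it was -1.11 ± 0.49 (95% interval -2.13 to -0.08), with an unadjusted limma p of 0.036 and an adjusted p of 0.153.

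In the main fit, the last of these was the 1 comparison of 11 in which the locus had an unadjusted p under 0.05. With 1 added in place of 0.1, or with median scaling, its unadjusted limma p was not under 0.05. In LV P7 against P0, 11.2% of all rows tested were called, and the median of all rows was itself at -0.32. After median scaling the row's difference was -0.78 (limma adjusted p = 0.386). In whole ventricle, fewer cells of a type and less RNA per cell cannot be told apart. Single libraries set the size of the difference. Without LV P7 replicate 2, the library at 0, the difference was -0.60 (limma adjusted p = 0.489), and without LV P7 replicate 3 it was -1.59 (limma adjusted p = 0.0589). For P3 against P0 and P7 against P3 in the left ventricle, 1.89% and 1.34% of all rows were called.

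In the right ventricle the same comparisons gave no call by limma. The P3 minus P0 difference was -0.38 ± 0.49 (SE; 95% interval -1.40 to 0.65; limma adjusted p = 0.802), with 2.46% of all rows called. For P7 minus P3 it was -0.09 ± 0.55 (95% interval -1.23 to 1.06; limma adjusted p = 0.979), with 0.74% called. For P7 minus P0 it was -0.46 ± 0.55 (95% interval -1.61 to 0.69; limma adjusted p = 0.697), with 5.55% called. The median of all rows in this comparison was -0.27, and after median scaling the row's difference was -0.19. The values from P0 rest on RV P0 replicates 1 and 2. Without replicate 1, the low library, P7 minus P0 was -1.07, and without replicate 2, the highest, it was -0.04. P3 minus P0 was -0.98 and 0.04 in the same fits.

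Between the ventricles, the row's mean was higher in RV at 3 of 3 ages, and no difference was called by limma. RV minus LV was 0.34 ± 0.49 at P0 (SE; 95% interval -0.69 to 1.37; limma adjusted p = 0.987), where 0% of all rows were called and 587 had an unadjusted p under 0.05. At P3 it was 0.09 ± 0.49 (95% interval -0.94 to 1.12; limma adjusted p = 1), and at P7 0.98 ± 0.55 (95% interval -0.16 to 2.13; limma adjusted p = 1), with 0.00903% of all rows called at each.

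Over the 3 ages RV minus LV was 0.47 ± 0.29 (95% interval -0.14 to 1.09; limma adjusted p = 0.815), again with 0.00903% called. The P7 difference was 0.47 without LV P7 replicate 2 and 1.47 without LV P7 replicate 3. Without RV P0 replicate 2 the P0 difference was -0.08, and without RV P0 replicate 1 it was 0.95.

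The change from P0 to P7 was also compared between the chambers. The difference of RV change minus LV change was 0.65 ± 0.74 (SE; 95% interval -0.89 to 2.19; limma adjusted p = 1), with 0% of all rows called and 454 at an unadjusted p under 0.05. It was 0.04 without RV P0 replicate 1, 0.14 without LV P7 replicate 2, 1.06 without RV P0 replicate 2 and 1.13 without LV P7 replicate 3. The P7 minus P0 differences of the left and the right ventricle are therefore not shown to differ from each other. The intervals are wide: differences of 1 on the log2 scale in at least one direction lie inside the interval of every comparison.

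**Figure D3:**
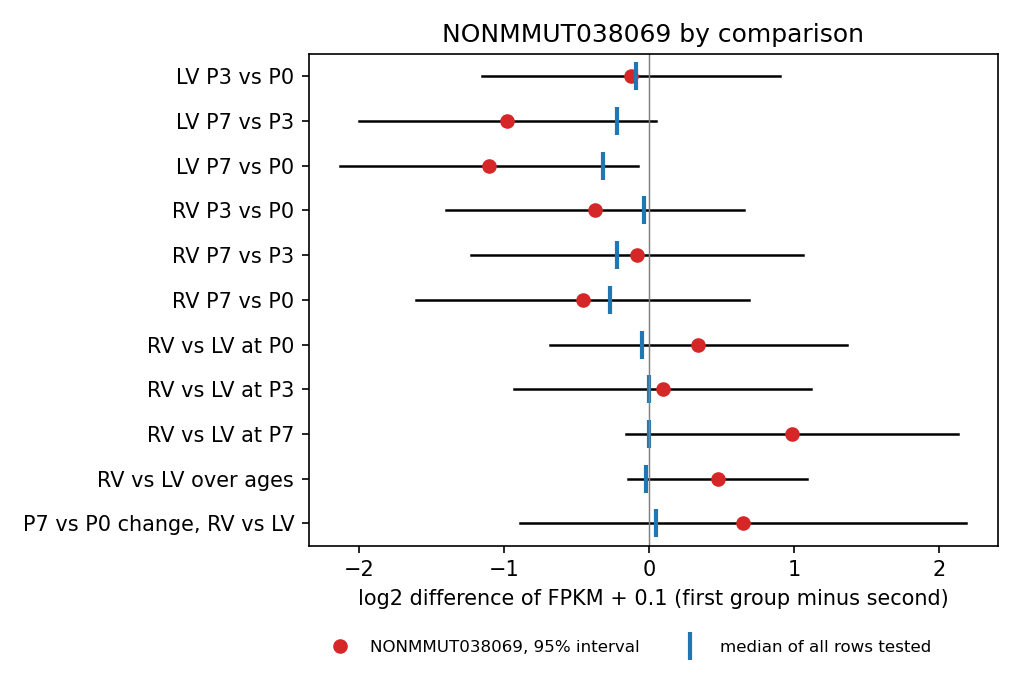
Log2 difference of FPKM + 0.1 for NONMMUT038069 (red points, first-named group minus second) with its 95% interval in the 11 comparisons, and the median of all rows tested (blue ticks). Of the intervals, that of LV P7 against P0 alone leaves out 0, from -2.13 to -0.08, and its adjusted p was 0.153.

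The stretches of 282 kb directly above and below the locus held 4 rows each, of which 1 and 2 were tested. NONMMUT038071, 30.6 kb above the upper end of the gene-long row at chr2:76851212-76852112 (mm9), averaged 37.6 FPKM and ranged from 29.2 to 47.2 FPKM over the 17 libraries. It had the one call among the 3 tested neighbours, LV P7 against P0, with a log2 difference of -0.45 ± 0.11 (SE; limma adjusted p = 0.0165). In that comparison 11.2% of all rows tested were called, and the median of all rows was -0.32. The titin rows, low themselves, have this abundant noncoding row as a neighbour. Below the locus, TCONS_00035047 at chr2:76447062-76447591 (mm9) averaged 0.233 FPKM, near the level of the short row, and was not called in any comparison by limma.

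The tested rows most like NONMMUT038069 across the 17 libraries, by Pearson correlation of log2(FPKM + 0.1), lay elsewhere in the genome. They were at chr17:82136048-82137732 (r = 0.83), at chr4:82041827-82044938 (r = 0.81) and at chr2:26239722-26240676 (r = 0.79), all mm9. Their means were 0.185, 0.101 and 0.164 FPKM, so each rests on few fragments in the same libraries. They are the best of 11078 rows compared, and the values of r are a description.

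One library stood apart from the rest. RV P3 replicate 2 lay at 57.7 on the third principal component of the tested rows, against -16.2 to 10.9 for the others, and had the lowest depth, 13.8 M fragments. NONMMUT038069 had 0.356 FPKM there, between the values of the other RV P3 libraries. Without it, RV minus LV at P3 was 0.04, RV P3 minus P0 was -0.42 and RV P7 minus P3 was -0.04, with no call by limma. The labels and file headers name no batch.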

How the data were processed

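The authors deposited 1 table per library with an ID, a position and a value; all 17 hold the same 23940 rows, 702 without position. The file headers name no unit. The deposited values are treated as FPKM, judged from the pattern of low values: multiplied by span, 66.1% to 69.4% of values up to 40 steps lay within 0.01 of a whole step, where rows of 2 steps outnumbered rows of 1 step in every library (1285 to 1793 against 463 to 608). Per the submitters' processing notes, STAR 2.4.0j and mm10 were used; for the counting tool, the annotation and the normalization nothing is stated (not given in the sources used here). Positions on 10 chromosomes run past the last GRCm38 gene of GENCODE M21, by up to 7.08 Mb, and are taken as mm9; none was converted.

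Rows reaching 0.1 FPKM in 2 or more libraries were tested with limma 3.58.1 (R 4.3.3) on log2(FPKM + 0.1), with group means over 17 libraries, a variance trend and robust moderation, two-sided; 11 comparisons were made. The method was tested on simulated data with normal log values and the same spread for all rows. That setting does not resemble rows of few fragments. The rule for naming rows (mean of at least 1 FPKM, or a call) took neither row, and both are described as the only members. Members and settings were chosen with earlier results of these data known. Alternatives changed the pseudocount (1, 0.01), filter, scaling, groups fitted, replicate block and libraries left out. For RV against LV, the replicate block paired the ventricles of one number within an age. LV P7 replicate 3 has no RV library of its number, so P7 rested on replicates 1 and 2 of each ventricle. For the age comparisons and the RV minus LV change, it joined libraries across ages within a ventricle by number only. There, deviations from the group means correlated at a median of -0.00375 for the same number and 0.000948 for other numbers. No sequence of the members was printed, since no mm9 genome was used here.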

Additional observations from a re-analysis of the deposited data

How the results depend on the processing

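No row of the titin locus was called in any of the 11 comparisons under up to 23 of the above alternatives each, 252 values in all. Without a filter both rows were tested. For TCONS_00035051 this says little, since its only value above 0, 0.000506 FPKM, is far below the added 0.1. Of the 252 log2 differences of NONMMUT038069, 246 kept their direction and 6 reversed, and the smallest limma adjusted p was 0.0589. Many of these differences could not move. Dropping the filter, fitting only the compared groups or leaving out a library of another group keeps the same group means. The 246 are therefore not independent checks. The reversed ones were RV P7 against P3 with median scaling, at 0.16, and 5 values with 1 library left out. With libraries left out, RV P3 against P0 ran from -0.98 to 0.04, RV P7 against P3 from -0.32 to 0.14, LV P3 against P0 from -0.26 to -0.05, RV against LV over the ages from 0.30 to 0.67, RV against LV at P0 from -0.08 to 0.95 and RV against LV at P3 from -0.10 to 0.33. The cause was not tested. Sizes depended on the pseudocount: with 1 and with 0.01, LV P7 against P0 was -0.25 and -2.27, LV P7 against P3 -0.20 and -2.11, RV against LV at P7 0.21 and 2.11, and the RV minus LV change 0.03 and 1.78. The replicate block called 0 locus rows. RV minus LV was 1.47 at P7 and 0.63 over the ages there, with adjusted p values of 0.656 and 0.506. Both differences were the same without LV P7 replicate 3, which has no RV partner. Deviations from the group means in same-numbered RV and LV libraries correlated at 0.0451 to 0.172 over 8 pairs. Counted from both sides of each pair, 16 of 16 libraries correlated best with their own number. These are not 16 independent results, because deviations cancel within a group and a high correlation lowers the others. The pattern is a hint from the data and not the design. Where leaving out a library left 1 in RV P7, its spread was taken from the remaining groups. The 0 to 15 fragments per library limit the precision of every value.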
